A study of Mus musculus with 8 samples.

Results

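Cells meet hydrogen peroxide and lipid peroxides with a set of enzymes that draw their electrons from glutathione or thioredoxin. Glutathione, a small peptide that contains cysteine, is spent by glutathione peroxidases and glutathione S-transferases and is restored by glutathione reductase, while peroxiredoxins are restored by thioredoxin. The transcription factor Nrf2, held back by Keap1, switches on many of these genes through antioxidant response elements, and in brain much of the glutathione machinery is known from astrocytes. The set described here holds 38 genes of this kind, chosen by name from a count table of 55416 genes, and all 38 names were found.

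The libraries hold polyadenylated RNA from the cerebral cortex of mice that were either heterozygous for an Ago2 knock-in (AGO2_L192P/+, called L192P) or wild type (WT), 4 libraries per genotype. Ago2 encodes Argonaute 2, which carries a miRNA to its target mRNAs, and the substitution was put into embryos of C57BL/6JUke mice by CRISPR/Cas, after which founders were crossed to wild-type C57/Bl6 animals. All cells of the knock-in animals carry the change, no treatment is named, and age, sex and the number of founder lines are not given in the sources used here. The comparison asked whether the transcripts of the antioxidant system differ between the genotypes.

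Libraries ranged from 20396357 to 43575900 counts. Values below are counts divided by a size factor of the library (normalized counts), and a gene was called when the DESeq2 adjusted p, taken over all 18627 genes that received one, was under 0.05. Replicate 1 of both genotypes stood apart from the other libraries, with 0.93 (L192P) and 1.82 (WT) normalized counts of Xist, the RNA of the inactive X chromosome, against 5185 to 7257 in replicates 2 to 4. The cortical excitatory neuron markers were present in every library, with list sums between 41042 and 48965 normalized counts. These sums were lower in all L192P libraries (at most 46373) than in any WT library (at least 46954), and 9 of 9 estimates were below 0 with none called. Oxt and Avp, peptide hormone genes of the hypothalamus, were called higher in L192P, as were Slc6a13 and Slc22a6 of the meninges and Gad2 of interneurons. Penk of the striatum was called lower. What these shifts contribute to the results below was not tested, and in whole tissue a change in the number of cells of a type cannot be told apart from a change in the RNA of each cell.

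Several members carry selenocysteine, an amino acid with selenium that is read from a TGA codon inside the reading frame. In the glutathione peroxidases this codon sits at the reaction centre, and the members differ there. The sequences are shown because they separate the selenium-dependent peroxidases, to which the called member Gpx3 belongs, from those with cysteine. They were read from GENCODE M39 on GRCm39, with the codon in capitals and 4 codons on either side.
Gpx1 (chr9:108216638-108216664, + strand): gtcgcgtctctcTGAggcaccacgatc
Gpx3 (chr11:54798070-54798096, + strand): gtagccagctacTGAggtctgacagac
Gpx4 (chr10:79890559-79890585, + strand): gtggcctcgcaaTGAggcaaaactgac
Gpx7 (chr4:108260615-108260641, - strand): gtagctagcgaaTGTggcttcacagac
Gpx8 (chr13:113182183-113182209, - strand): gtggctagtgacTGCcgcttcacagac

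Gpx7 and Gpx8 have a cysteine codon at the matching place. In both thioredoxin reductases the TGA is the next to last codon, 498 in Txnrd1 and 526 in Txnrd2, so their windows end at the last codon. Selenop, the plasma carrier of selenium, has 10 such codons, of which the first is shown. In Selenow it is codon 13, and its window spans an intron.
Txnrd1 (chr10:82731859-82731876, + strand): cagtctggctgcTGAggt
Txnrd2 (chr16:18296510-18296527, + strand): gtgactggttgcTGAggc
Selenop (chr15:3304318-3304344, + strand): cttcaagccagcTGAtacttgtgtctt
Selenow (chr7, - strand): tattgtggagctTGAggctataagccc

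Of the 38 genes, 1 was called and it was higher in L192P, the secreted glutathione peroxidase gene Gpx3. No member was called lower. Over all tested genes 1.36% were called, 0.789% higher and 0.569% lower, so 1 call in 38 is not a share that stands out. An unadjusted p under 0.05 was found for 3 members (Gpx3 and Txnrd1 higher, Prdx5 lower), beside 9.44% of all tested genes. The 4 L192P and 4 WT values did not overlap for 2 members, Gpx3 and Prdx5, beside 5.97% of all tested genes.

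Most members differed little between the genotypes. Their median log2 fold change was -0.01, beside 0.0019 over all tested genes, and the median size of the change regardless of sign was 0.072, beside 0.105. Estimates were above 0 for 17 members and below 0 for 21, and with total counts as the size factors these numbers became 21 and 17. For 35 of 38 members the 95% interval lay inside ±0.5 on the log2 scale. Gpx3, Gpx8 and Sod3 had wider or higher intervals.

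**Figure D1:**
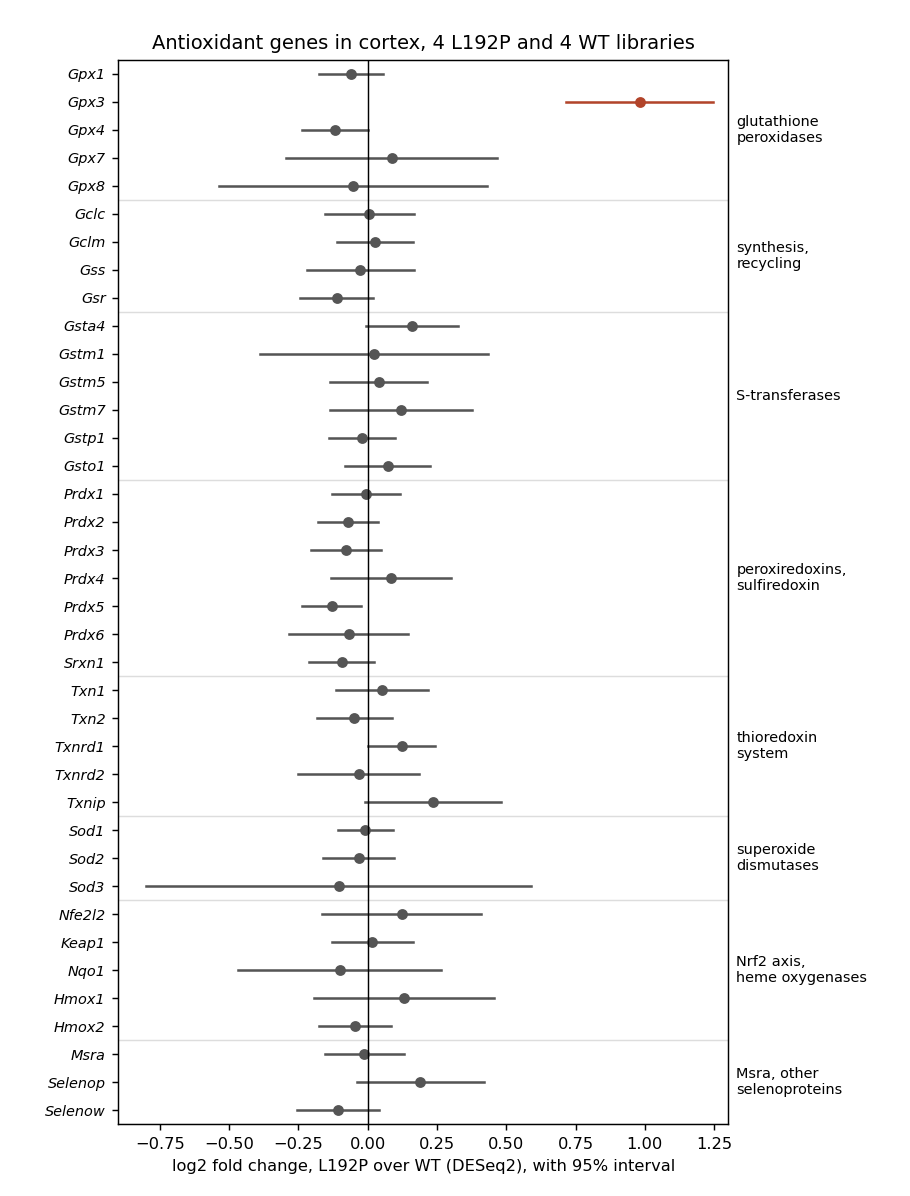
Log2 fold change of L192P over WT for the 38 antioxidant genes (points, DESeq2) with 95% intervals (lines), grouped by role, from 4 libraries per genotype. Gpx3, the called member in red, stands at 0.98 with its interval above 0, and the other points lie between -0.13 and 0.24.

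Among the glutathione peroxidases, Gpx3 was the member that moved. Gpx3 (ENSMUSG00000018339, chr11:54793279-54802424 on GRCm39, + strand) encodes the extracellular enzyme that reduces peroxides in plasma and other fluids. Its normalized counts in L192P replicates 1 to 4 were 455, 403, 423 and 446. In WT replicates 1 to 4 they were 271, 214, 226 and 162. Every L192P library lay above every WT library, with the lowest L192P value 403 and the highest WT value 271. Against a WT mean of 218 ± 45.2, the L192P mean was 432 ± 23.4 (SD, n = 4), 1.97-fold higher, with a log2 fold change of 0.98 ± 0.14 (SE) and an adjusted p of 2.2e-09 in DESeq2. The 95% interval of the increase ran from 64.2% to 137%. By exact permutation over the 8 libraries, taken as unpaired (two-sided), p was 0.0286, the smallest that 4 against 4 can give. Groups without overlap always give this p, and the permutation leaves out the pairing of replicate numbers. With the replicate number as a block the DESeq2 adjusted p was 7.8e-10. Gpx3 was called in each of the 18 other fits tried, with log2 fold changes from 0.87 to 1.10. In replicates 2 to 4 alone it was 1.07.

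Exons of Tnip1 on the opposite strand cover 85.0% of the exon bases of Gpx3 (2603 of 3062), and the strand setting of the read counting is not stated, so reads of the pair may not be fully separated. Normalized counts of Tnip1 itself were 883 ± 70.7 (L192P) and 934 ± 47.6 (WT, SD, n = 4), and DESeq2 gave an adjusted p of 0.874 for a log2 fold change of -0.08. Its library values overlapped between the genotypes.

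Markers of other tissues also differed between these libraries. Oxt had 145, 19.3, 143 and 155 normalized counts in L192P replicates 1 to 4 and 2.73 to 7.60 in WT. Oxt in L192P replicate 2 was still above every WT library. Avp had 329, 19.3, 459 and 220 normalized counts in L192P replicates 1 to 4. In WT replicates 1 to 4 it had 21.9, 10.7, 11.9 and 10.5. Trh, also of the hypothalamus and not called, had 225, 138, 112 and 190 in L192P. In WT it had 135, 98.9, 60.8 and 56.2. Of the 8 hypothalamus markers 5 received an adjusted p, with 4 estimates above 0 and 1 below, and 2 were called. Sums over all 8 were 218 to 1233 in L192P and 128 to 261 in WT. The lowest L192P sum, that of replicate 2, lay inside the WT range, and the highest was that of replicate 3. None of the 8 had 0 counts in all libraries. The 8 meningeal fibroblast markers had estimates above 0 throughout, 2 of them called, and their sums were 1119 to 1947 in L192P and 937 to 1279 in WT. The 8 choroid plexus markers, with none called, had sums of 16925 to 38815 in L192P and 14638 to 33152 in WT. The 8 striatum markers had estimates below 0, with sums of 29188 to 36465 against 38106 to 46307. Of the oligodendrocyte, microglia, endothelial, mural, erythroid, thalamus and hippocampus lists no marker was called and the sums overlapped. The part of these tissues in the Gpx3 difference was not tested.

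**Figure D2:**
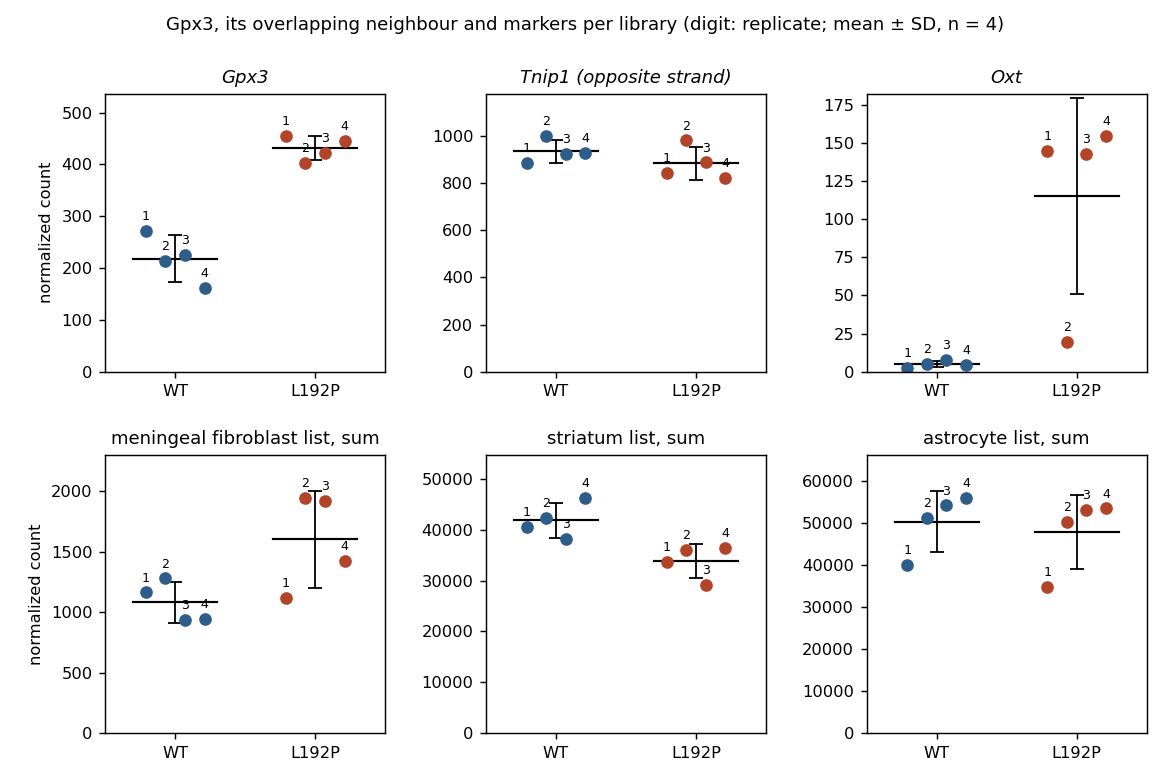
Normalized counts per library (vertical axes from 0) of Gpx3, of Tnip1 on the opposite strand, of Oxt, and summed counts of 3 marker lists, for WT in blue and L192P in red; digits are replicate numbers, lines means and bars SD (n = 4). All L192P libraries lie above all WT libraries for Gpx3 (lowest L192P value 403, highest WT value 271). The same holds for Oxt (lowest L192P value 19.3, WT values 2.73 to 7.60).

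The 4 remaining glutathione peroxidases were not called. Gpx4, which reduces lipid peroxides in membranes, ran from 5664 to 6803 normalized counts over the 8 libraries and had the lowest log2 fold change of this family, -0.12. Gpx1, the cytosolic enzyme, ran from 2012 to 2262 with a log2 fold change of -0.06. Both had many more counts than the called gene. Gpx7 ran from 68.2 to 94.6 and Gpx8 from 52.3 to 126 normalized counts, with log2 fold changes of 0.09 and -0.05. These enzymes of the endoplasmic reticulum had the fewest counts of the 5 peroxidases among the members, and the interval of Gpx8 was wide, -0.54 to 0.43.

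Glutathione synthesis and recycling did not differ detectably. Gclc and Gclm encode the catalytic and modifier subunits of glutamate-cysteine ligase, the rate-limiting step. Gclc ran from 1334 to 1694 normalized counts and Gclm from 1482 to 1701, with log2 fold changes of 0.01 and 0.03. Gss, glutathione synthetase, ran from 382 to 445 with a log2 fold change of -0.03. Gsr, the reductase that restores glutathione, had the largest estimate of these 4 genes, -0.11, with values from 999 to 1159 and an adjusted p of 0.658 in DESeq2. All 4 intervals lay inside ±0.5.

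The glutathione S-transferases, which couple glutathione to reactive compounds, were not called in 6 of 6 cases, and 5 of the 6 estimates were above 0 (6 of 6 with total-count size factors). Gsta4, which handles a product of lipid peroxidation, ran from 841 to 1136 normalized counts with the largest estimate of the family, 0.16, and a DESeq2 adjusted p of 0.563. Gstm7 ran from 422 to 661 (0.12 on the log2 scale) and Gsto1 from 604 to 683 (0.07). Gstm5 ran from 2233 to 2816 (0.04), Gstm1 from 1989 to 3294 (0.02) and Gstp1 from 2813 to 3175 (-0.02). Gstm1, Gstm5 and Gstm7 lie close together on chromosome 3 and are similar in sequence, so reads shared by these copies make their single values uncertain.

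Among the peroxiredoxins, Prdx5 came closest to a decrease. Prdx5 (ENSMUSG00000024953, chr19:6884065-6887792, - strand) encodes a peroxiredoxin of mitochondria, peroxisomes and cytosol. Its normalized counts were 5862, 6196, 6173 and 6013 in L192P replicates 1 to 4. In WT they were 6397, 7062, 6621 and 6438. The groups did not overlap, but the highest L192P value and the lowest WT value were 6196 and 6397. The mean was 6061 ± 156 in L192P and 6629 ± 305 in WT (SD, n = 4), for a log2 fold change of -0.13 ± 0.05 (SE) and an adjusted p of 0.322 in DESeq2. The exact permutation p over unpaired libraries was 0.0286, which groups without overlap always give. Prdx5 was called in 0 of the 18 other fits. With the replicate number as a block the adjusted p was 0.0705.

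The rest of this family was likewise not called. Prdx2, abundant in neurons, ran from 5677 to 6348 normalized counts (-0.07 on the log2 scale), and the mitochondrial Prdx3 from 1500.1 to 1771 (-0.08). Srxn1, sulfiredoxin, which repairs overoxidized peroxiredoxins, ran from 2630 to 3109 (-0.09). Prdx6, known from astrocytes, ran from 3749 to 5429 (-0.07), Prdx1 from 2899 to 3346 (-0.01) and Prdx4 of the endoplasmic reticulum from 275 to 349 (0.08). With sulfiredoxin, 6 of these 7 estimates were below 0 (5 of 7 with total-count size factors), and all 7 intervals lay inside ±0.5.

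In the thioredoxin system, Txnrd1 had the third unadjusted p under 0.05. Txnrd1 (ENSMUSG00000020250, chr10:82669785-82733546, + strand) encodes the cytosolic selenoprotein that restores thioredoxin. Its normalized counts were 2340, 2336, 2206 and 2101 in L192P replicates 1 to 4. In WT they were 2141, 2091, 1985 and 2029. The groups overlapped, since the fourth L192P replicate lay below the first WT replicate. The mean was 2246 ± 115 in L192P and 2061 ± 68.7 in WT (SD, n = 4), for a log2 fold change of 0.12 ± 0.06 (SE) and an adjusted p of 0.51 in DESeq2. Txnrd1 was called in 0 of 18 other fits. Txnrd2, its mitochondrial counterpart, ran from 335 to 419 normalized counts (-0.03 on the log2 scale).

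The thioredoxins Txn1 of the cytosol and Txn2 of mitochondria ran from 1364 to 1712 and from 2285 to 2737 normalized counts, with log2 fold changes of 0.05 and -0.05. Txnip, which binds and inhibits thioredoxin and responds to glucose, had the largest estimate of any member after Gpx3, 0.24. It ran from 392 to 585 normalized counts, the groups overlapped, and the DESeq2 adjusted p was 0.557.

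The superoxide dismutases, which turn superoxide into hydrogen peroxide, had estimates below 0 in 3 of 3 cases (2 of 3 with total-count size factors), with none called. Sod1 of the cytosol ran from 4698 to 5135 normalized counts (-0.01 on the log2 scale) and Sod2 of mitochondria from 4862 to 5711 (-0.03). The extracellular Sod3 ran from 129 to 345 (-0.11), and its interval, -0.80 to 0.59, was the widest of the 38.

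The Nrf2 axis showed no called difference either. Nfe2l2, the gene of Nrf2, ran from 282 to 445 normalized counts (log2 fold change 0.12), and Keap1 from 1427 to 1657 (0.02). Nqo1, a quinone reductase and a classical Nrf2 target, ran from 84.1 to 121 (-0.10). The inducible heme oxygenase gene Hmox1 ran from 104 to 150 (0.13), and the constitutive Hmox2 from 1624 to 1916 (-0.05). The DESeq2 adjusted p of these 5 genes was 0.915 or more. Exons of Cdip1 on the opposite strand cover 75.8% of Hmox2, and exons of Gm57050 cover 85.3% of Gpx1, so these 2 genes share the reservation made for Gpx3. It also applies, to a smaller extent, to other members with such overlap, among them Sod1 (48.8%), Prdx5 (29.2%) and Keap1 (25.8%).

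Msra, a methionine sulfoxide reductase, ran from 851 to 957 normalized counts (-0.01 on the log2 scale), and Selenow, a small selenoprotein, from 14476 to 18855 (-0.11). Selenop, described in full after its values were seen because its call depended on 1 library, had 2566, 3756, 3913 and 3561 normalized counts in L192P replicates 1 to 4. In WT it had 2583, 3179, 3209 and 3130. Replicate 1 was the lowest of both genotypes and the other L192P values lay above every WT value. With all libraries DESeq2 gave a log2 fold change of 0.19 ± 0.12 (SE), adjusted p 0.677. Without L192P replicate 1 it was 0.31 with an adjusted p of 0.022, and in replicates 2 to 4 of both genotypes it was 0.24 with an adjusted p of 0.00816. That second fit called 3.46% of 14437 genes. Without WT replicate 1 the DESeq2 estimate of Selenop was 0.12 with an adjusted p of 0.746. With the replicate number as a block it was 0.18 with an adjusted p of 0.0612.

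Gpx3 was the 1 called gene among the 7 members with a selenocysteine codon, whose estimates split into 3 above and 4 below 0.

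**Figure D3:**
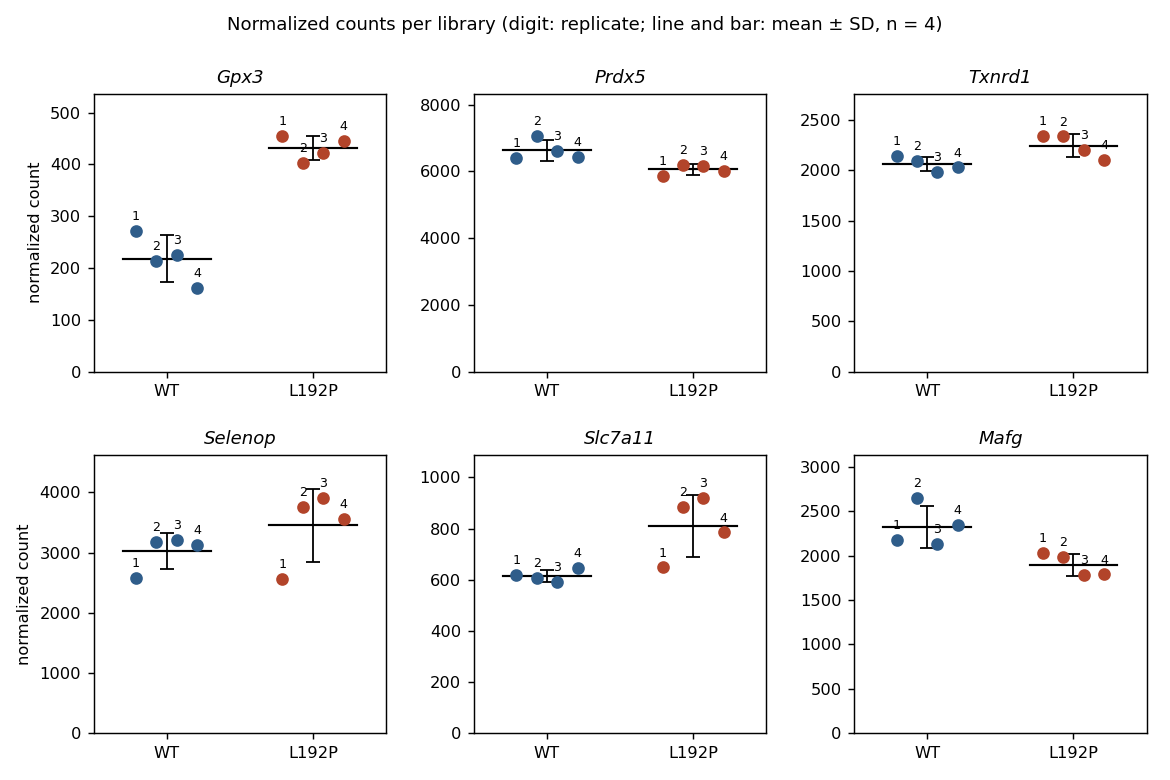
Normalized counts per library (vertical axes from 0) of 4 members and of Slc7a11 and Mafg from the wider pathway list, with replicate numbers as digits and mean ± SD (n = 4). Gpx3 separates widely, Prdx5 by a small margin, Txnrd1 and Selenop overlap, and L192P replicate 1 is the lowest L192P library for Selenop and Slc7a11.

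Levels between genes were compared as counts per kilobase of exon union, brought to the same total in every library. On this scale the members spanned from Selenow, 4984 ± 339 in WT and 4699 ± 217 in L192P, to Nqo1, 8.35 ± 1.07 and 7.93 ± 1.21 (SD, n = 4). Gpx4 followed Selenow with 823 ± 23.1 in WT, then Prdx5 with 562 ± 23.4 and Gstm5 with 428 ± 28.7. Within their roles, the highest levels in WT belonged to Gclc for synthesis (51.7 ± 4.3), Txn1 for the thioredoxin system (147 ± 18.1), Sod1 for the dismutases (122 ± 2.42) and Keap1 for the Nrf2 axis (57.1 ± 3.19). Gpx3 was far down the order, at 15.2 ± 3.49 in WT and 30.5 ± 2.47 in L192P. Its level in WT was below that of Gpx4 and Gpx1 (325 ± 3.58) and its mean was above that of Gpx7 (9.79 ± 1.21). Opposite-strand exons cover 85.0% of Gpx3 and 85.3% of Gpx1, so these 2 levels and their ranks hold the reservation on strand given above. Ordered by their mean over all libraries, 30 of the 37 neighbouring pairs of members overlapped in their library values and 7 did not. Selenow, Gpx4 and Prdx5 each stood clear of the next gene. Taking the longest transcript in place of the exon union lowered Selenow in WT to 3581 ± 249. Selenow, Gpx4 and Prdx5 kept ranks 1 to 3, but the order below them depended on the length used. Gstm5 moved from rank 4 to 6 and Gstp1 from 5 to 4. Prdx3 moved from rank 9 to 13 and Prdx6 from 14 to 10.

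**Figure D4:**
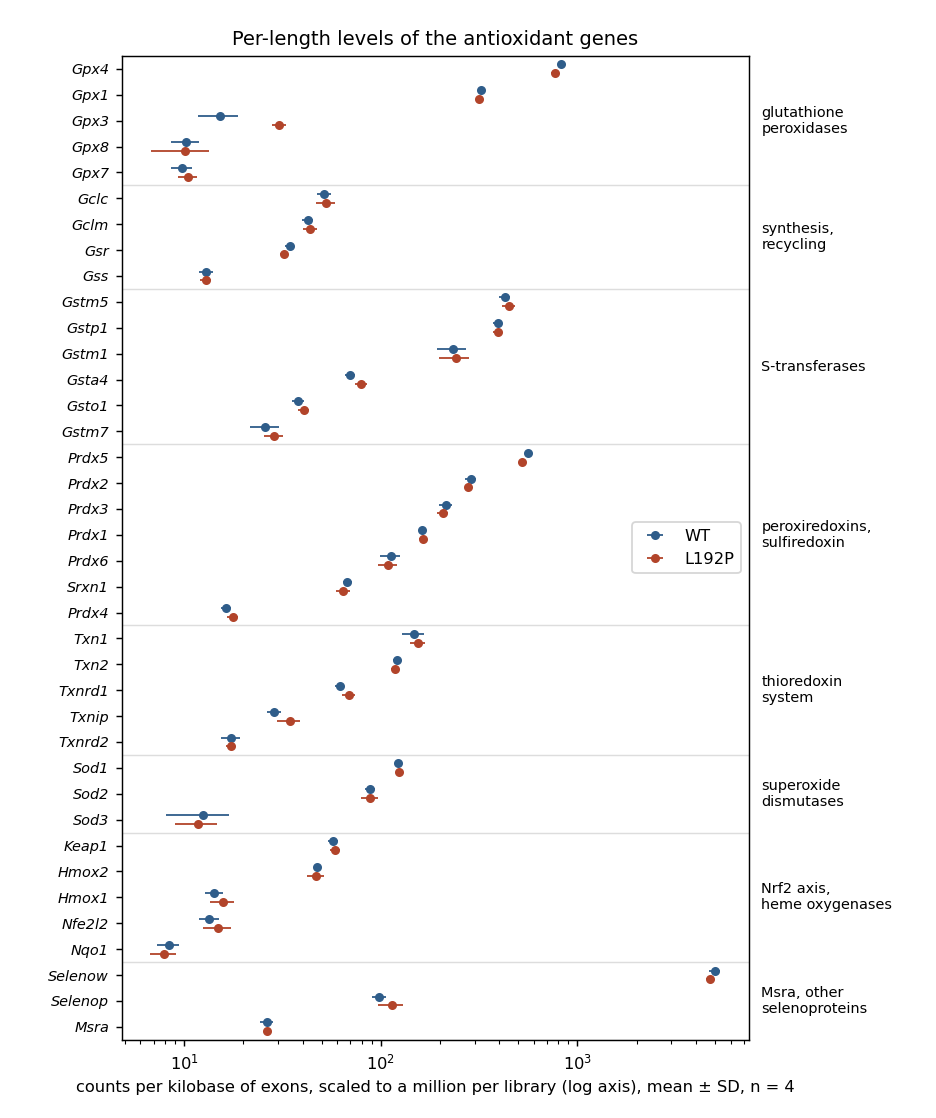
Per-length level of each member (log axis; counts per kilobase of exons brought to the same total in every library, mean ± SD, n = 4) in WT (blue) and L192P (red), grouped by role. Selenow is highest at 4984 in WT and Nqo1 lowest at 8.35; the means of both genotypes lie close together for every member but Gpx3.

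Many members were low in replicate 1. In both genotypes this library was the lowest of its 4 for 19 of 38 members, beside 14.2% of all tested genes, and the highest for 7 members, beside 13.5%. Sod3 in replicate 1 stood at 54.6% of the mean of the other libraries in L192P and 45.4% in WT, and Gstm1 at 64.5% and 66.9%. For Prdx6 the values were 75.1% and 76.7%, for Nfe2l2 70.6% and 76.8%, and for Selenop 68.6% and 81.4%. The pattern therefore took in S-transferases, peroxiredoxins, Nrf2 itself and the extracellular Sod3. Gpx3, Gsto1, Prdx3, Txn1, Txnrd1, Sod2 and Hmox2 were highest in replicate 1 of both genotypes. In the wider pathway list it was lowest for 17 and highest for 7 of 94 genes.

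Summed marker counts of several non-neuronal cell types were also lowest in replicate 1 of both genotypes. For the 7 astrocyte markers the sum was 34744 against 50277 to 53468 in the other L192P libraries and 40004 against 51126 to 56065 in the other WT libraries, and none of these markers was called between the genotypes. The oligodendrocyte sum was 93529 in L192P replicate 1 and 95535 in WT replicate 1, against at least 106601 and 118755 in the other libraries of each genotype. The microglia sums (4674 and 5097), endothelial sums (632 and 831) and mural sums (1538 and 1765) of replicate 1 were likewise the lowest of both genotypes. The share of mitochondrially encoded counts was 0.782% and 1.05% in replicate 1 and 1.32% to 1.96% elsewhere. The replicate 1 libraries were also those nearly without Xist RNA. A difference of sex, which the sources do not give, therefore cannot be told apart from other traits of replicate 1. The part of sex, of these cell types or of RNA quality in this pattern was not tested.

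**Figure D5:**
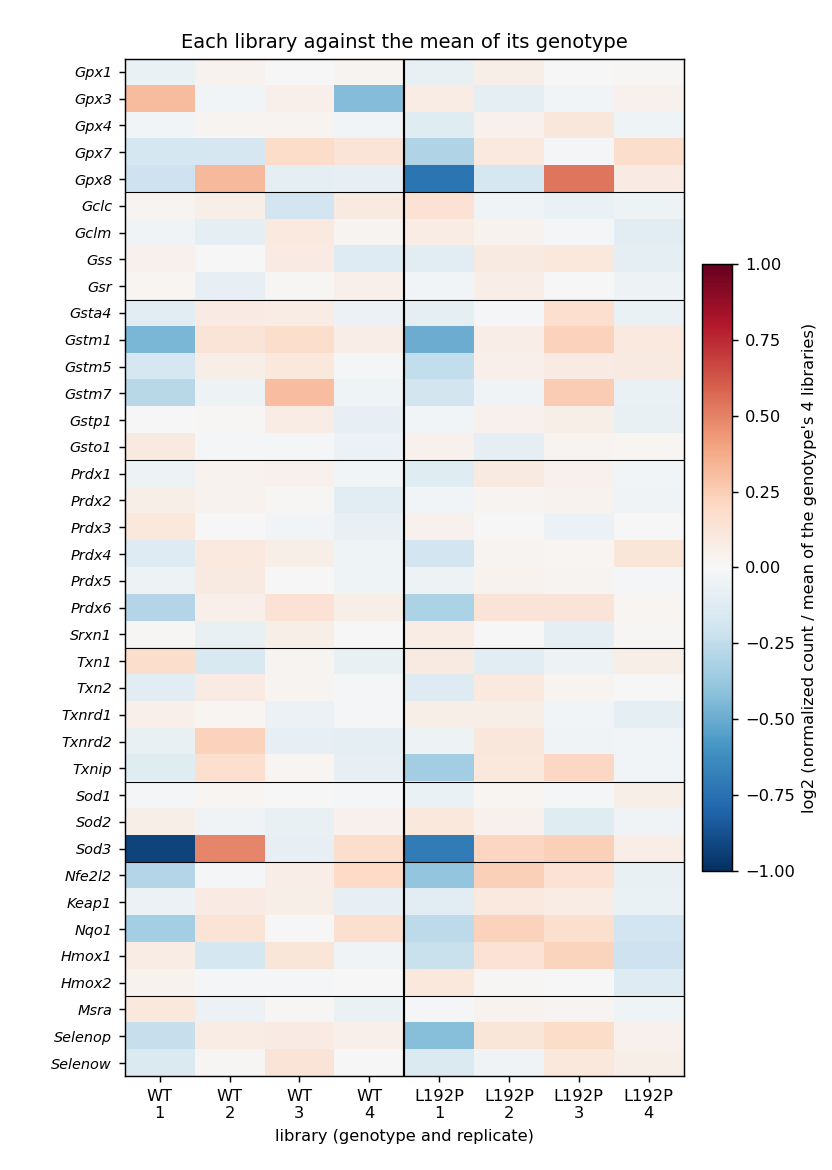
Log2 of each library's normalized count over the mean of its genotype's 4 libraries, for the 38 members (rows) and 8 libraries (columns), blue below and red above the mean. In both genotypes replicate 1 is the lowest library (blue) for 19 members such as Gstm1, Prdx6, Sod3 and Selenop, and the highest (red) for 7 such as Gpx3 and Txn1.

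A wider list of 94 other genes of the same pathways was counted beside the members, and 86 of them received an adjusted p. Of these 86, 1 was higher and 1 lower, beside the 1.36% of all tested genes. The higher gene was Slc7a11 (ENSMUSG00000027737, chr3:49846975-50398070, - strand), the cystine importer that supplies cysteine for glutathione. Its normalized counts were 648, 883, 921 and 785 in L192P replicates 1 to 4. In WT they were 617, 608, 591 and 647. The groups touched without overlapping, since L192P replicate 1 lay just above WT replicate 4. DESeq2 gave a log2 fold change of 0.39 ± 0.11 (SE), adjusted p 0.0246. Slc7a11 was called in 10 of 18 other fits, and its call was lost when replicate 2, 3 or 4 of either genotype was left out, with log2 fold changes from 0.33 to 0.42.

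The lower gene was Mafg (ENSMUSG00000051510, chr11:120515942-120524530, - strand), a small Maf protein that pairs with Nrf2 on antioxidant response elements. Its normalized counts were 2029, 1984, 1787 and 1790 in L192P replicates 1 to 4. In WT they were 2183, 2657, 2129 and 2346. Every L192P library lay below every WT library, by a narrow margin between 2029 and 2129. DESeq2 gave a log2 fold change of -0.30 ± 0.08 (SE), adjusted p 0.0365. Mafg was called in 9 of 18 other fits, and its call was lost without L192P replicate 2, 3 or 4 and without WT replicate 2 or 4, with log2 fold changes from -0.32 to -0.23. Under limma-voom neither gene was called, with adjusted p of 0.256 for Slc7a11 and 0.187 for Mafg.

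By role, the wider list held none called of 15 tested peroxidases and transferases, 1 of 12 genes of glutathione turnover and cystine supply, and none of 12 thioredoxin and glutaredoxin proteins. None of 5 genes of the group with catalase, 1 of 18 Nrf2 partners and targets, none of 19 tested selenoproteins and genes of the selenocysteine machinery, and none of 5 sestrins and others was called. Catalase (Cat), which breaks down hydrogen peroxide without glutathione, had a log2 fold change of -0.01.

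Because the substitution lies in a protein that reads miRNA seeds, the 3′ UTRs were searched for exact matches of 7 bases to the seeds of 3 miRNAs. The study discussed miR-92-3p and miR-5121 for other genes. The caption of the figure panel that it cites for miR-92-3p names miR29-3p instead. The miR-29 family is also well known in brain. The mature sequences are from RefSeq, with the seed in capitals.
mmu-miR-92a-3p: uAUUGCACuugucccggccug
mmu-miR-5121: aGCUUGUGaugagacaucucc
mmu-miR-29a-3p: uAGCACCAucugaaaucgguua

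A miR-92a-3p match (GTGCAAT) was present in 3 of 38 members, beside 8.07% of 14890 UTRs of tested genes. Matches to miR-5121 (CACAAGC) and to miR-29a-3p (TGGTGCT) were present in 5 of 38 members each, beside 11.2% and 16.7%. The UTR of Gpx3, 1940 bases long, held none of these matches. Both called genes of the wider list held some, in longer UTRs of 7364 bases (Slc7a11) and 4168 bases (Mafg). Their sites are shown in capitals (GRCm39, gene strand).
Slc7a11, miR-5121 (chr3:50321024-50321046, - strand): gactacttCACAAGCcaccaaaa
Slc7a11, miR-29a-3p (chr3:50322563-50322585, - strand): ctctgtgtTGGTGCTgatagaat
Mafg, miR-29a-3p, first of 3 (chr11:120519585-120519607, - strand): aggaaccaTGGTGCTggagcctg

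Slc7a11 was higher and Mafg lower, and both held a miR-29a-3p match. What these matches contribute to either difference was not tested. Among the 5 members with that match, 2 estimates were above 0 and 3 below.

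The core of the antioxidant response element (TGACNNNGC, either strand) was searched in the 250 bases before and 50 bases after each start in the RefSeq promoters of GRCm38.p6. It was present in 8 of 31 members with a promoter in that table (Gclm, Gstm5, Gstm7, Prdx1, Srxn1, Txnrd1, Sod1 and Nfe2l2), beside 14.0% of 27025 genes. None of these 8 was called, and 5 of their 8 estimates were above 0. Windows of a member with the unadjusted difference and of the called partner gene are shown with the core in capitals.
Txnrd1 (chr10:82859104-82859132 on GRCm38.p6, + strand): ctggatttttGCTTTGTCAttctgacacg
Mafg (chr11:120633751-120633779 on GRCm38.p6, - strand): ctctgcaggaGCACGGTCAacccggcgag
A match of letters describes the window and is not a measured site.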

How the data were processed

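The authors aligned the reads with STAR, tallied them per gene with featureCounts 1.5.1 on GRCm39 and deposited raw counts of each library and a second table of normalized signal, the counts divided by DESeq2 size factors. Size factors computed here gave back that table with a largest difference of 3.49e-10. The labels name STAR 2.7.9a and DESeq2 1.40.2, and the strand setting is not given in the sources used here.

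DESeq2 1.42.0 in R 4.3.3 was fitted to the deposited counts of all genes with genotype as the only term and independent filtering at 0.05, as the study's tool and threshold; fold changes were not shrunk. The members and all lists were chosen with earlier results of these data known. Genes were named in full by an adjusted or unadjusted p under 0.05 or by groups without overlap; of the wider list, called genes were named, and others where stated. No list was given a p. The seed search was added after the data were seen.

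Libraries of 1 genotype differed beyond sampling noise (chi-square per degree of freedom 5.52 to 22.6), so each counted as 1 replicate; nothing states separate animals, so p-values measure the spread between libraries. Deviations from the genotype mean over 13422 genes correlated between same-numbered libraries at 0.628, 0.381, 0.233 and 0.327, so the replicate numbers of the labels were taken to pair the libraries, and other pairs gave -0.375 to 0.144. Alternatives were edgeR 4.0.16, limma 3.58.1 (voom), other size factors and filters, the replicate block, replicates 2 to 4, and leaving out each library. On simulated data with 200 changed genes of 30137 and a log2 change of 1, DESeq2 recovered 97.5% with 8.88% false calls. Unfiltered edgeR made 32.3% false calls, so a filtered edgeR fit was added after seeing the data (6.34%). Positions, exon overlaps and UTRs came from GENCODE M39 (98.8% of identifiers found).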

Additional observations from a re-analysis of the deposited data

Results flagged for a closer look

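In 5 of 80 groups of 4 libraries (the members and both called genes of the wider list, in either genotype) the highest or lowest library stood far from the others, where chance gives about 4, so the count is close to chance. Divided by the whole range of the group, the distance from that library to its closest neighbour was 0.855 for Gclc in L192P (replicate 1 at 1694 normalized counts, the others 1456 to 1491) and 0.872 for Gstm5 in L192P (replicate 1 at 2233, the others 2741 to 2816). It was 0.874 for Selenop in WT, with replicate 1 at 2583 and the others at 3130 to 3209. Txnrd2 stood out in both genotypes through replicate 2, at 0.863 in L192P (379 against 338 to 344) and 0.953 in WT (419 against 335 to 339).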

How the results depend on the processing

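Gpx3 was called under all 18 alternatives, with adjusted p from 8.79e-14 to 0.00951. The number of called members, 1 in the main fit, was 2 in replicates 2 to 4 and 1 to 2 when single libraries were left out, the second being Selenop (without L192P replicate 1). The replicate block gave 1 called member, with Gpx3 at an adjusted p of 7.8e-10 in DESeq2, and changed no call of a member. The members' median log2 fold change stayed between -0.02 and 0.02. The 2 called genes of the wider list became 0 with limma-voom and with the filtered edgeR fit, 1 with total-count size factors and 1 with independent filtering off, and 0 to 2 without single libraries. The replicate block called 3. Over all genes 253 were called in the main fit (147 higher, 106 lower), 533 with the block, 500 in replicates 2 to 4, 53 with limma-voom, 51 with the filtered edgeR fit, 112 to 496 without single libraries, and 232 with total-count size factors (168 higher, 64 lower). The per-length level of Selenow in WT moved from 4984 to 3580.85 with the longest transcript; its own length is 736 bases either way, so the move comes from bringing the libraries to the same total over the other genes' changed lengths. The cause of the other changes was not tested. A change within the printed intervals, widest for Sod3 and Gpx8, could not be told from the spread between libraries.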
